A study of Mus musculus with 16 samples.

Results

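The 10 genes described here encode enzymes and helpers that modify, fold, trim and crosslink collagen, namely P4ha1, P3h1, Crtap, Plod1, Plod2, Serpinh1, Pcolce, Bmp1, Lox and Loxl2. They were chosen by name from the 32285 genes of the count matrices, and all 10 were found. Their RNA was followed in single-cell RNA-Seq of bone marrow stromal cell cultures from 12-week-old mice, kept for 21 days in osteoblastic medium with 10 mM bGP. Live cells were sorted, marked with a tag per culture, pooled by genotype and loaded as 1 droplet reaction per genotype, so that genotype and reaction cannot be told apart in any comparison between genotypes. All mice carried floxed Fgf23. WT cultures were Dmp1+/+ without Cre, and Fgf23cKO cultures were Dmp1+/+ with a Dmp1-Cre transgene, which removes Fgf23 from cells that have expressed that transgene. Dmp1KO cultures lacked Dmp1 in all cells and carried no Cre, and Dmp1KO/Fgf23cKO cultures combined the Dmp1 deletion with Dmp1-Cre. Wherever an effect of the Fgf23 deletion is asked for below, the Dmp1-Cre transgene differs with it, and the 2 cannot be told apart. The paper reports a similar phenotype in mice with Dmp1-Cre and unfloxed Fgf23, which are not among these samples. Tagged cultures numbered 3 for WT, 3 for Fgf23cKO, 2 for Dmp1KO, whose first culture was not analysed here, and 3 for Dmp1KO/Fgf23cKO. Cells of each genotype were isolated from 3 mice and kept as 3 cultures, and the labels do not say which culture came from which mouse, so p values measure the spread between cultures.

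Fibrillar collagen is made as a procollagen in the endoplasmic reticulum, where prolyl hydroxylases stabilize the triple helix and lysyl hydroxylases prepare lysines for sugar attachment and crosslinking. The chaperone HSP47 binds the folded helix, and after secretion the propeptides are cut off so that fibrils can assemble. Lysyl oxidases then oxidize lysines and hydroxylysines, which start the crosslinks that give bone matrix its strength, and inherited loss of several of these proteins causes brittle bones.

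P4ha1 encodes a catalytic subunit of prolyl 4-hydroxylase and spans chr10:59323296-59373304 on the plus strand (GENCODE M21, GRCm38). P3h1, a prolyl 3-hydroxylase, lies at chr4:119232915-119248975 on the plus strand, and Crtap, its partner in the same complex, at chr9:114375134-114390675 on the minus strand. The lysyl hydroxylases are Plod1 at chr4:147909753-147936767, minus strand, and Plod2, which acts on the telopeptides at the ends of the collagen chains, at chr9:92542223-92608428, plus strand. Serpinh1, which encodes HSP47, lies at chr7:99345376-99353239 on the minus strand. Pcolce, an enhancer of C-propeptide removal, lies at chr5:137605103-137613784 on the minus strand, and Bmp1, the C-proteinase it assists, at chr14:70474558-70520234 on the minus strand. Lox encodes lysyl oxidase itself, and Loxl2, one of its relatives, is at chr14:69609068-69695834 on the plus strand.

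Promoter windows of RefSeq (GRCm38.p6), from 250 bases before to 50 after a start, were found for 6 of the 10 genes, in 7 windows because P3h1 has 2. Both strands were searched for 5 short motifs. The GC box CCGCCC was found in 7 of the 7 windows, and in 35.7% of the 32851 windows of the table. In the second P3h1 window and in that of Crtap it lay only after the start. ACGTG, the core of the element that hypoxia-inducible factors bind, was found in windows of 3 of the 6 genes, P3h1, Serpinh1 and P4ha1, and in 19.6% of all windows. The other motifs were CCAAT, present in 37.4% of all windows, GAANNTTC, present in 7.86%, and TATAAA, present in 13.6%. A match is a description of letters and not of a bound site. The 250 bases before the start are shown for 4 genes on which results below turn, 5′ to 3′ on the strand of the gene, with the GC box in capitals, as GGGCGG where it is on the other strand. The Pcolce window lies inside the span of the gene given above, before an internal start. The P3h1 window shown holds no ACGTG, since the matches of P3h1 lie in its other window. P3h1 and Serpinh1 were both called higher in pre-osteoblast 1-like cells of Dmp1KO/Fgf23cKO cultures, Pcolce was called in osteoprogenitor-like cells, and P4ha1 had the largest step of the 10 from pre-osteoblast 1-like to osteoblast/osteocyte-like cells.
P3h1, chr4:119232665-119232914, plus strand: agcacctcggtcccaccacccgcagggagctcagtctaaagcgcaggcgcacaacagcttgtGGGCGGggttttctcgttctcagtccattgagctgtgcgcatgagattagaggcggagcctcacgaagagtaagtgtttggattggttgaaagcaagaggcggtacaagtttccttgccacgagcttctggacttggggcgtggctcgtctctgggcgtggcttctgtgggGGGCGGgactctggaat
Serpinh1, chr7:99353240-99353489, minus strand: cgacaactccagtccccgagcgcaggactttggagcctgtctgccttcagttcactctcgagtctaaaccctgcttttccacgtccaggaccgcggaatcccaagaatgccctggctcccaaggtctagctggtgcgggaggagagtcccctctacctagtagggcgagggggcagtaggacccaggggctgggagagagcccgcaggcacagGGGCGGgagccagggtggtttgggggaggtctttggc
Pcolce, chr5:137611405-137611654, minus strand: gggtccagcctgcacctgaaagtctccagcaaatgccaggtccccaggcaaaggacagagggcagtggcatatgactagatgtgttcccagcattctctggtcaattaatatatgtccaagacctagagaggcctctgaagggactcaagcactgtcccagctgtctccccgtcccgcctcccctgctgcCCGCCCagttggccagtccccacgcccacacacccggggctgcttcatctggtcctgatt
P4ha1, chr10:59323046-59323295, plus strand: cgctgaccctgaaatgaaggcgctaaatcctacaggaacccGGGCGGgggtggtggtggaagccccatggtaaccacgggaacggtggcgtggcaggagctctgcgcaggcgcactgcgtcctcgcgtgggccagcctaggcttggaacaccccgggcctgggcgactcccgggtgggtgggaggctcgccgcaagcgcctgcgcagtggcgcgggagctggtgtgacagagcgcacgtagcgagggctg

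The matrices held 17793 cells of 15 samples, of which 14577 cells belonged to the 11 tagged cultures and 3216 to 4 samples of untagged cells. A tagged culture held 470 to 2825 cells and 9518928 to 72482185 UMIs, the counts of single RNA molecules. The median UMIs per tagged cell were 7194 in WT, 32509 in Fgf23cKO, 21173 in Dmp1KO and 33199 in Dmp1KO/Fgf23cKO, so WT cells were the shallowest. Cells were clustered anew, and a cluster was called "X-like" from markers, so a class may hold other cells than the study's clusters of like name. Osteoprogenitor-like cells led with Tagln, Cald1 and Tpm2 and were shallow, at 0.24 times the median UMIs of the cells of their own samples. Pre-osteoblast 1-like cells led with Ebf1, Col3a1 and Pappa and were deep, at 4.72 times that median. Osteoblast/osteocyte-like cells joined a cluster of 386 cells led by Ibsp, Col1a1 and Bglap with a shallow cluster of 164 cells led by Col5a2, Bglap and Mmp13. The latter had a median of 862.5 UMIs, and 109 of its cells were Dmp1KO/Fgf23cKO and 130 untagged. Stromal classes made up 3.62 to 9.07% of the cells of WT, 6.65 to 11.2% of Fgf23cKO, 2.90 to 4.395% of Dmp1KO and 9.08 to 14.4% of Dmp1KO/Fgf23cKO tagged cultures. In the untagged samples they made up 30.7, 21.5, 26.85 and 44.8% in the same order. Stromal cells were thus more common among untagged cells, and the sums of tagged cultures leave many of them out. For Dmp1KO, 225 stromal cells were untagged, beside 82 and 122 in the tagged cultures. In osteoblast/osteocyte-like cells there were 440, 416 and 1708 UMIs of Dmp1 in the WT cultures, 853, 1145 and 107 in the Fgf23cKO cultures, 0 and 3 in the Dmp1KO cultures and 51, 47 and 22 in the Dmp1KO/Fgf23cKO cultures, in the direction of the labels. Fgf23 was too rare to check, with at most 8 UMIs over all cells of a culture.

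Levels are given as CPM, the share of a gene among all UMIs of the cells of a class summed per tagged culture, for sums of at least 10 cells. They are compared between classes within a gene and not between genes, and without a test, because the clusters were made from these genes. Over all samples, 8 of the 10 genes had their highest CPM in osteoblast/osteocyte-like cells among the 3 stromal classes with enough cells, and the exceptions, Pcolce and Loxl2, were highest in pre-osteoblast 1-like cells. Sums of tagged cultures were available for 11 cultures of osteoprogenitor-like and pre-osteoblast 1-like cells and 7 of osteoblast/osteocyte-like cells, since the Dmp1KO cultures had 2 and 6 of the latter.

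Among the proline hydroxylases, P4ha1 was low in osteoprogenitor-like cells (median 46.9 CPM, 4.17 to 89.4) and in pre-osteoblast 1-like cells (median 76.6 CPM, 65.5 to 93.0), and high in osteoblast/osteocyte-like cells (median 583 CPM, 301 to 1023). The ranges of the first 2 classes overlapped and that of the last lay apart. Within a culture, the P4ha1 level was higher in osteoblast/osteocyte-like than in pre-osteoblast 1-like cells by a median of 2.92 on the scale of log2(CPM + 1), in 7 of 7 cultures. P3h1 was higher at each stage, from a median of 13.9 CPM (0 to 31.5) to 42.4 CPM (31.2 to 68.2) and 147 CPM (119.6 to 237). Its level was listed at 0 in osteoprogenitor-like cells of WT culture 2 and Fgf23cKO culture 2, where 3 counts would have stood for 41.0 and 23.5 CPM. Crtap followed the same order with medians of 78.25, 129 and 292 CPM, and its step from pre-osteoblast 1-like to osteoblast/osteocyte-like cells was 1.18 in the median and present in 7 of 7 cultures. P3h1 and Crtap, whose proteins work in one complex, had the same order of classes. That order is not particular to them, as the medians of every other gene described here except Loxl2 followed it too.

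The lysyl hydroxylases differed from each other. Plod2 was at a median of 37.5 CPM in osteoprogenitor-like cells (7.82 to 83.4), 224 CPM in pre-osteoblast 1-like cells (94.5 to 334) and 400.3 CPM in osteoblast/osteocyte-like cells (271 to 487.5). The main step of Plod2 was the first, with a median log2 difference of 2.63 in 11 of 11 cultures, against 0.59 in 6 of 7 cultures for the second. Plod1 stood at medians of 31.7, 41.2 and 84.4 CPM in these classes, and neighbouring classes overlapped in range, at 10.2 to 68.4, 27.1 to 60.5 and 57.4 to 114 CPM. Plod1 was at 64.1 to 119 CPM in macrophage-like cells, so its level there was not below that in the stroma.

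Serpinh1, the collagen chaperone, separated all 3 classes without overlap, at 116 to 375 CPM in osteoprogenitor-like, 547 to 903 CPM in pre-osteoblast 1-like and 1735 to 3185 CPM in osteoblast/osteocyte-like cells. The 2 procollagen processing genes took different courses. Bmp1 was higher at each stage, from a median of 31.5 CPM (18.4 to 72.1) to 212 CPM (157 to 295.5) and 349.8 CPM (257 to 385), with its larger step first (2.47 in the median, 11 of 11 cultures). Pcolce was at 68.4 to 314 CPM in osteoprogenitor-like, 237 to 406 CPM in pre-osteoblast 1-like and 223 to 366 CPM in osteoblast/osteocyte-like cells. Pcolce was higher in osteoblast/osteocyte-like than in pre-osteoblast 1-like cells in only 4 of 7 cultures, with a median log2 difference of 0.08, so the cultures did not share a direction.

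The lysyl oxidases went in opposite directions at the last stage. Lox was at 207 to 798 CPM in osteoprogenitor-like, 513 to 1079 CPM in pre-osteoblast 1-like and 1267 to 1614 CPM in osteoblast/osteocyte-like cells, and the last step was upward in 7 of 7 cultures (median log2 difference 0.89). Loxl2 was at 54.7 to 307 CPM, 195 to 342 CPM and 44.65 to 139 CPM in the same order. It was lower in osteoblast/osteocyte-like than in pre-osteoblast 1-like cells in each of the 7 cultures, with log2 differences of -2.10 to -1.04 and a median of -1.68. Among 6 fibrillar collagen genes, Col3a1 alone shared this direction (median -2.79, lower in 7 of 7 cultures), whereas Col1a1, Col1a2, Col5a1, Col5a2 and Col11a1 were higher in osteoblast/osteocyte-like cells in 7 of 7 cultures. Col3a1 was among the markers that named the pre-osteoblast class, and Col1a1, Col1a2 and Col11a1 among those of the osteoblast/osteocyte class.

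**Figure D1:**
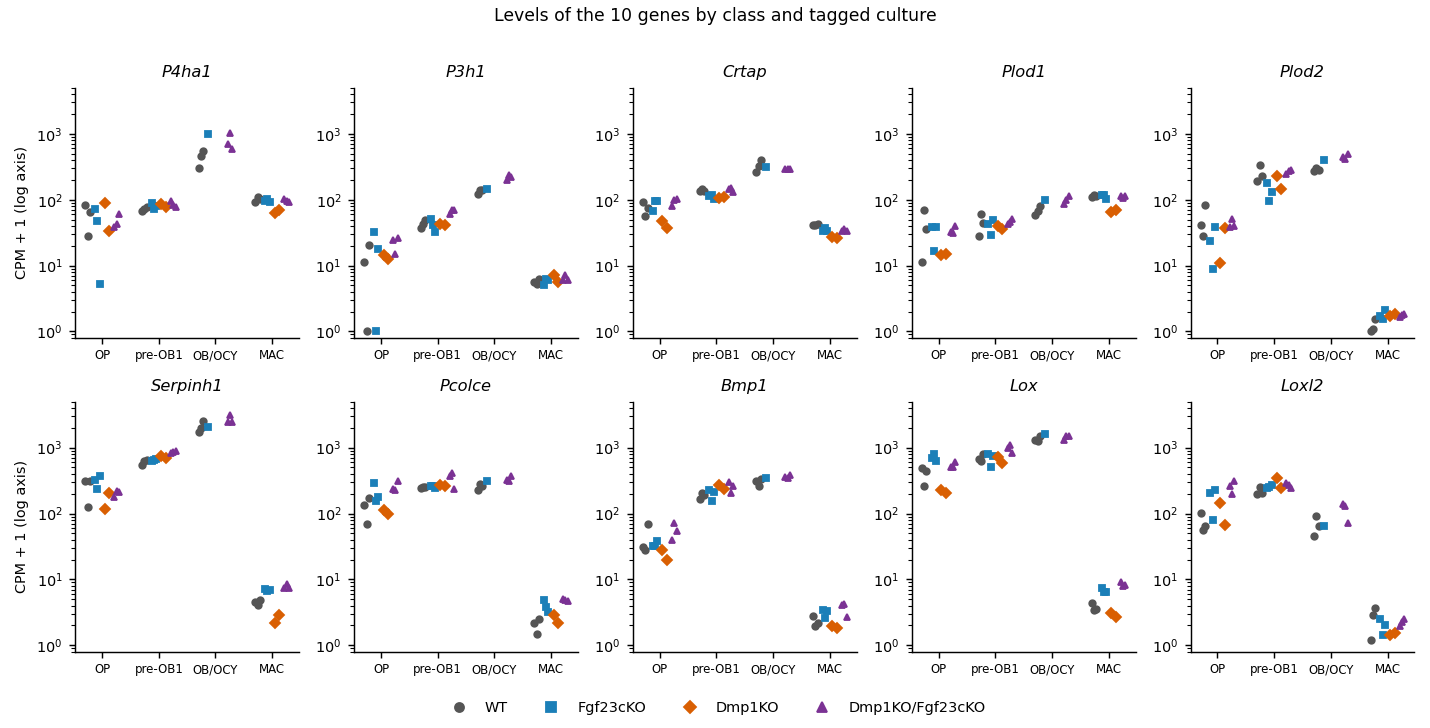
Levels of the 10 genes as CPM + 1 on a log axis, where each point is a tagged culture with at least 10 cells of the class (OP, osteoprogenitor-like, pre-OB1, pre-osteoblast 1-like, OB/OCY, osteoblast/osteocyte-like, MAC, macrophage-like). P4ha1 and Serpinh1 climb to the osteoblast/osteocyte-like class, Loxl2 drops there, and Plod1 is about as high in macrophage-like cells as in any stromal class.

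**Figure D2:**
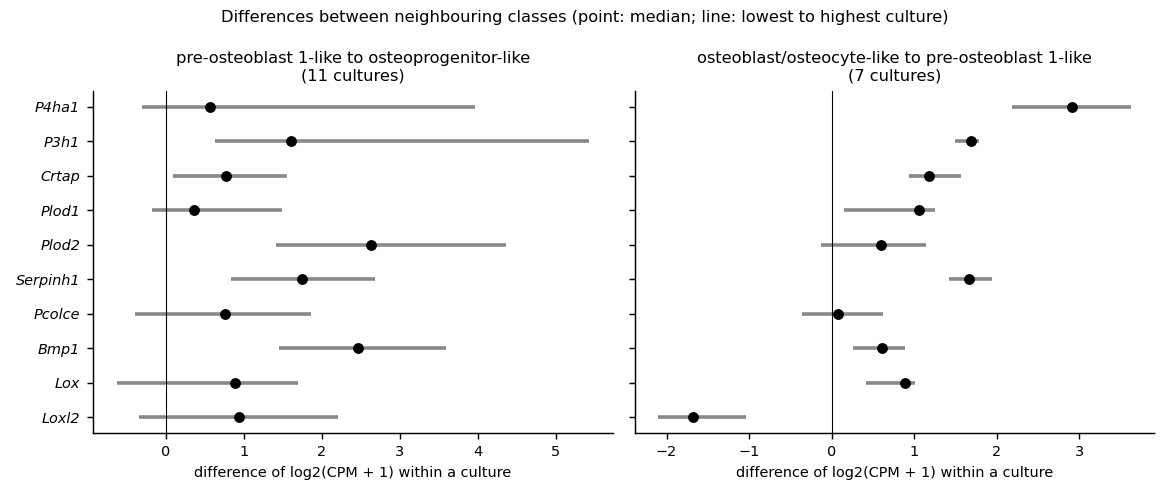
Difference of log2(CPM + 1) between neighbouring classes of the same culture for the 10 genes, with the median as a point and the lowest to highest culture as a line. Plod2 and Bmp1 take their larger step between osteoprogenitor-like and pre-osteoblast 1-like cells, P4ha1 between pre-osteoblast 1-like and osteoblast/osteocyte-like cells, and Loxl2 lies below 0 in the second panel.

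The genes also differed in how they varied together over the 29 sums of tagged cultures and stromal classes. Pearson correlations of log2(CPM + 1) ranged from 0.49 to 0.94 among the 9 genes other than Loxl2, and from -0.38 to 0.43 between Loxl2 and those 9. These are descriptions over sums that share cultures, depth and class. Of 8614 genes with a mean of at least 10 CPM, Serpinh1 was most like Col1a2 (r = 0.98), Surf4 (r = 0.96), a cargo receptor of the secretory pathway, and Col1a1 (r = 0.96). Crtap was most like Surf4 (r = 0.96), Fkbp7 (r = 0.95) and Col1a2 (r = 0.94), and Lox was most like Crtap (r = 0.93), Col1a2 (r = 0.92) and Mmp23 (r = 0.92). Plod2 was most like Bmp1 (r = 0.94), Pdgfd (r = 0.93) and Gxylt2 (r = 0.93), and Bmp1 was most like Ptprd (r = 0.97), Col5a2 (r = 0.96) and Ccn4 (r = 0.95). For P3h1 the closest were Slc35a2 (r = 0.95), Ibtk (r = 0.95) and P4ha2 (r = 0.94), and for P4ha1 Bambi (r = 0.90), Ppm1e (r = 0.89) and Col22a1 (r = 0.89). Pcolce was closest to Ptgfrn (r = 0.90), P3h3 (r = 0.89) and Tspan3 (r = 0.89), Plod1 to Slc38a10 (r = 0.88) and Tmem59 (r = 0.88), and Loxl2 to Kremen1 (r = 0.85), Atp2b4 (r = 0.82) and Maz (r = 0.82).

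Outside the named stromal classes, a cluster of 120 cells led by Csmd1, Tenm3 and Apod was left unnamed. It held 70 WT, 48 Fgf23cKO, 0 Dmp1KO and 2 Dmp1KO/Fgf23cKO cells. In its 3 sums of at least 10 cells, Bmp1 was at 251 to 361.5 CPM, between the lowest pre-osteoblast 1-like and the highest osteoblast/osteocyte-like sum, and Serpinh1 at 262 to 343 CPM, within the range of osteoprogenitor-like cells, whereas Lox was at 0 to 13.2 CPM and Pcolce at 12.2 to 39.0 CPM, below every stromal sum.

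Macrophage-like cells, which are not known to make fibrillar collagen, gave a level of each gene outside the stroma to compare with. In 6 of the 10 genes this was as low as for the collagens. In Plod2, Serpinh1, Pcolce, Bmp1, Lox and Loxl2, the macrophage-like level was a median of 0.281 to 0.930% of the stromal level of the same culture, beside 0.322 to 0.639% for the 6 collagens. In Plod1 it was 187% in the median, in P4ha1 46.1%, in Crtap 19.9% and in P3h1 5.63%. Of all Plod2 UMIs of the tagged cultures, 86.2 to 98.4% came from stromal classes in the 4 genotypes, and of all Plod1 UMIs 3.64 to 11.7%. Most RNA of lysyl hydroxylase 1 in these cultures was counted outside the stromal classes.

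**Figure D3:**
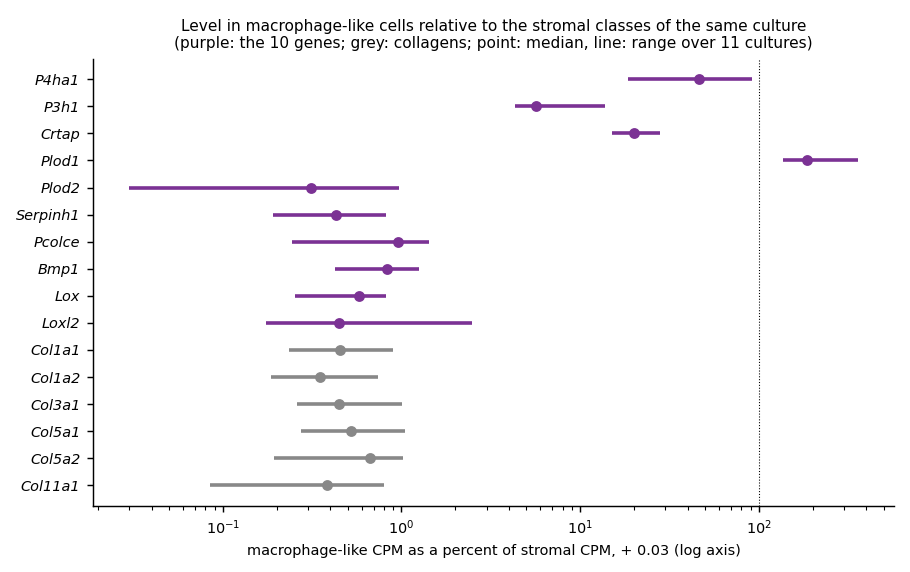
Level of each gene in macrophage-like cells as a percent of its level in the stromal classes of the same culture, plus 0.03, on a log axis, with the median as a point and the range over 11 cultures as a line. Plod1 lies at 137 to 359%, P4ha1, Crtap and P3h1 lie in between, and the other 6 genes lie with the collagens.

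The comparison of Fgf23cKO with WT asks what deletion of Fgf23 from Dmp1-expressing cells does in mice with Dmp1. In osteoprogenitor-like cells, 3 of the 9 genes tested were higher in Fgf23cKO, Pcolce, Lox and Loxl2, and 0 were lower, where 18.4% of the 5024 genes tested were called at an adjusted p under 0.1 (edgeR quasi-likelihood test). P3h1 was too low to be tested in this class. Pcolce was at 132, 68.4 and 172 CPM in the WT cultures and at 295, 156.5 and 175 CPM in the Fgf23cKO cultures, where the 2 ranges overlapped (log2 fold change 1.08, SE 0.35, adjusted p = 0.0644). Lox was at 489, 259.8 and 437 CPM in WT and 687, 798 and 634 CPM in Fgf23cKO, without overlap (1.19, SE 0.27, adjusted p = 0.0120). Loxl2 was at 102, 54.7 and 63.8 CPM in WT and 203, 78.2 and 229 CPM in Fgf23cKO, where 1 Fgf23cKO culture lay within the WT range (1.65, SE 0.45, adjusted p = 0.0313). These levels rest on few molecules, as the WT sums held 5 to 35 UMIs of Pcolce, 19 to 89 of Lox and 4 to 13 of Loxl2. The call of Pcolce was lost without WT culture 1 (adjusted p = 0.120), WT culture 2 (0.190) or Fgf23cKO culture 1 (0.233). The call of Loxl2 was lost without WT culture 2 (adjusted p = 0.106) or WT culture 3 (0.126). Clustering without the listed genes of the collagen pathway also ended the calls of Pcolce (0.77, adjusted p = 0.319) and Loxl2 (1.14, adjusted p = 0.1945). Counting the untagged samples as further cultures ended that of Pcolce (0.79, adjusted p = 0.115), although their cells came from the same pooled cultures. The untagged cells of this class held 628297 UMIs in Fgf23cKO and 76601 in WT. Of these, 85 and 11 were of Pcolce and 51 and 7 of Loxl2, so neither was higher in Fgf23cKO there, whereas Lox, with 290 and 28, was. Of the 6 genes not called, Serpinh1 had a log2 fold change of 0.68, SE 0.36, adjusted p = 0.221, Crtap of 0.56, SE 0.38, and Plod2 of -0.79, SE 0.62.

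Fold changes in osteoprogenitor-like cells depended on the scaling. With library totals alone in place of TMM factors, an alternative added after seeing the data, the median fold change of all genes against WT moved by -0.44 for Dmp1KO, -0.44 for Fgf23cKO and -0.60 for Dmp1KO/Fgf23cKO, and the values of the 10 genes are best read relative to that shift. The share of called genes that were higher then went from 70.3 to 30.45% for Dmp1KO, from 58.2 to 21.7% for Fgf23cKO and from 58.6 to 17.2% for Dmp1KO/Fgf23cKO. For Dmp1KO/Fgf23cKO against Dmp1KO it went from 65.85 to 51.1%, and for the interaction described below from 21.1 to 38.9%. In Fgf23cKO against WT, Lox (0.75, adjusted p = 0.0554) and Loxl2 (1.21, adjusted p = 0.0890) were still called with totals alone and Pcolce was not (0.63, adjusted p = 0.227). With each cell thinned to 1300 UMIs and shallower cells left out, Lox was at a log2 fold change of 0.07, adjusted p = 0.940, and Loxl2 of 1.57, adjusted p = 0.293, and Pcolce was too low to be tested. Summed macrophage markers in the osteoprogenitor-like sums were 5817 to 18020 CPM in WT and 1792 to 8721 CPM in Fgf23cKO, with 5 of 10 tested markers lower in Fgf23cKO and 0 of the 11 at 0 in either genotype. The median UMIs per cell were 1685 to 2970 in WT and 3845 to 5340 in Fgf23cKO. The part of either in these differences was not tested.

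In pre-osteoblast 1-like cells, 1 of the 10 genes was called between Fgf23cKO and WT, Plod2, which was lower, where 12.3% of the 11678 genes tested were called. Plod2 was at 191, 334 and 224 CPM in WT and 181, 94.5 and 128 CPM in Fgf23cKO, so every Fgf23cKO culture lay below every WT culture (log2 fold change -0.81, SE 0.25, adjusted p = 0.0710). The call was lost without WT culture 2 (adjusted p = 0.219), WT culture 3 (0.124), Fgf23cKO culture 2 (0.162) or Fgf23cKO culture 3 (0.1405). With cells thinned to 1300 UMIs, Plod2 was at -1.42, adjusted p = 0.199. Lox, Loxl2 and Pcolce, called in osteoprogenitor-like cells, had log2 fold changes of 0.02, SE 0.18, of 0.28, SE 0.15, and of 0.09, SE 0.17 here, and the difference between the classes was not tested for this comparison. Of the Fgf23cKO cultures, 1 had enough osteoblast/osteocyte-like cells for a sum, with 17, so no test was made. It was at 1008 CPM of P4ha1 and 400.3 CPM of Plod2, both above the 3 WT cultures. The other cultures, with 9 and 5 such cells, were at 287 and 394 CPM of P4ha1 and at 339.6 and 158 CPM of Plod2, so the Fgf23cKO cultures did not lie on one side of WT.

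The comparison of Dmp1KO with WT, which asks what loss of Dmp1 does with Fgf23 intact, called 0 of the 9 genes tested in osteoprogenitor-like cells, where 12.1% of all genes were called, and 0 of 10 in pre-osteoblast 1-like cells, where 12.2% were called (edgeR). At an unadjusted p under 0.05 there were 0 and 4, and DESeq2 also called 0 in both classes. In osteoprogenitor-like cells, Lox was at 225 and 207 CPM in the Dmp1KO cultures, below each WT culture (log2 fold change -0.51, SE 0.30, adjusted p = 0.339), and with library totals alone it was called lower (-0.94, adjusted p = 0.0562). Loxl2 was at 146 and 66.6 CPM (0.88, SE 0.49, adjusted p = 0.301). Crtap in pre-osteoblast 1-like cells was at 105 and 109 CPM, below 135, 142 and 135 CPM in WT (-0.32, SE 0.13, adjusted p = 0.165). Loxl2 there was at 342 and 243 CPM, beside 195, 255 and 206 CPM in WT (0.46, SE 0.17, adjusted p = 0.115). Serpinh1 was at 747.5 and 694 CPM, above each WT culture (0.27, SE 0.12, adjusted p = 0.208), and Bmp1 at 269 and 232 CPM, also above each WT culture (0.46, SE 0.19, adjusted p = 0.170).

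Dmp1KO/Fgf23cKO cultures were compared with WT in all 3 stromal classes. In osteoprogenitor-like cells, Pcolce, Lox and Loxl2 were higher, 3 of the 9 genes tested, and 0 were lower, where 24.1% of all genes were called. Pcolce was at 235, 230.1 and 314 CPM, above each WT culture (log2 fold change 1.53, SE 0.35, adjusted p = 0.00838). Lox was at 509.7, 510.1 and 607 CPM, also above each WT culture (0.99, SE 0.26, adjusted p = 0.0205). Loxl2 was at 260.1, 194 and 307 CPM, again above each WT culture (2.34, SE 0.44, adjusted p = 0.00217). No single culture left out ended any of these 3 calls. With library totals alone, Pcolce (0.90, adjusted p = 0.0656) and Loxl2 (1.72, adjusted p = 0.0173) were still called and Lox was not (0.37, adjusted p = 0.254). With cells thinned to 1300 UMIs, the direction of Lox turned (-0.19, adjusted p = 0.738), Loxl2 lost its call (1.65, adjusted p = 0.175), and Pcolce was too low to be tested. Summed macrophage markers were 2736 to 7317 CPM in Dmp1KO/Fgf23cKO, against 5817 to 18020 CPM in WT, with 2 of 10 tested markers lower and 0 of 11 at 0. Summed osteoblast/osteocyte markers were 5580 to 7916 CPM, against 1107 to 5338 CPM in WT, with 3 of 7 tested markers higher and 2 of 11 at 0 in Dmp1KO/Fgf23cKO, and 6 of 8 tested osteoprogenitor markers were higher. The median UMIs per cell were 3197 to 7212, against 1685 to 2970 in WT. The part of these in the difference was not tested.

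P3h1 and Serpinh1 were higher in Dmp1KO/Fgf23cKO than in WT in pre-osteoblast 1-like cells, 2 of 10 genes, where 15.5% of all genes were called. P3h1 was at 35.6, 42.05 and 48.2 CPM in WT and 59.7, 67.8 and 68.2 CPM in Dmp1KO/Fgf23cKO, without overlap (log2 fold change 0.63, SE 0.19, adjusted p = 0.0601). Serpinh1 was at 547, 625.5 and 658 CPM in WT and 824, 868 and 903 CPM in Dmp1KO/Fgf23cKO, without overlap (0.50, SE 0.11, adjusted p = 0.0141). The call of P3h1 was lost without WT culture 1 (adjusted p = 0.2185), WT culture 2 (0.122), Dmp1KO/Fgf23cKO culture 2 (0.132) or Dmp1KO/Fgf23cKO culture 3 (0.121), and in DESeq2 (0.117). No culture left out ended that of Serpinh1, which was lost with cells thinned to 1300 UMIs (0.49, adjusted p = 0.311), where P3h1 was too low to be tested. Among the other genes, Lox was at 668, 628 and 804 CPM in WT and 989.6, 1079 and 819.5 CPM in Dmp1KO/Fgf23cKO, without overlap but not called (0.45, SE 0.18, adjusted p = 0.133). Pcolce was at 364.5, 406 and 237 CPM in Dmp1KO/Fgf23cKO and 246, 249.7 and 249.7 CPM in WT, where culture 3 of Dmp1KO/Fgf23cKO overlapped WT (0.44, SE 0.17, adjusted p = 0.131), and it was called without that culture (0.64, adjusted p = 0.0111). Summed osteoblast/osteocyte markers in these cells were 21450 to 24960 CPM in Dmp1KO/Fgf23cKO and 9682 to 17330 CPM in WT, with 3 of 9 tested markers higher and 1 and 2 of 11 at 0. The median UMIs per cell were 101120.5 to 117729.5 and 18595.5 to 20331.5, and the part of either in the difference was not tested.

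WT and Dmp1KO/Fgf23cKO were the genotypes with enough cultures of osteoblast/osteocyte-like cells for a test, and 2 of 10 genes, P3h1 and Plod2, were higher in the latter, where 15.0% of the 8643 genes tested were called. P3h1 was at 119.6, 138 and 138 CPM in WT and 196, 237 and 219.5 CPM in Dmp1KO/Fgf23cKO (log2 fold change 0.62, SE 0.16, adjusted p = 0.0319). Plod2 was at 271, 304 and 279 CPM in WT and 449, 412 and 487.5 CPM in Dmp1KO/Fgf23cKO (0.56, SE 0.14, adjusted p = 0.0328). Neither gene overlapped between the groups. The call of P3h1 was lost without WT culture 1 (adjusted p = 0.126), WT culture 3 (0.106) or Dmp1KO/Fgf23cKO culture 2 (0.1375). The call of Plod2 was lost without WT culture 1 (adjusted p = 0.125) or WT culture 3 (0.1355). With cells thinned to 1300 UMIs P3h1 was too low to be tested. P4ha1 was at 301, 462 and 539 CPM in WT and 708.5, 1023 and 583 CPM in Dmp1KO/Fgf23cKO, without overlap, and missed the threshold (0.72, SE 0.25, adjusted p = 0.1002). P4ha1 was called with library totals alone (0.82, adjusted p = 0.04785), which moved the share of called genes that were higher from 49.1 to 62.0%, and in DESeq2 (0.73, adjusted p = 0.0455). Loxl2 was called with totals alone (0.82, adjusted p = 0.0928) and not with TMM factors (0.72, SE 0.29, adjusted p = 0.156). Lox did not pass the test (-0.01, SE 0.13), nor did Serpinh1 (0.25, SE 0.18) or Crtap (-0.30, SE 0.17). The median UMIs per cell were 13270.5 to 23411 in WT and 76950 to 119683 in Dmp1KO/Fgf23cKO, and their part in the difference was not tested.

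**Figure D4:**
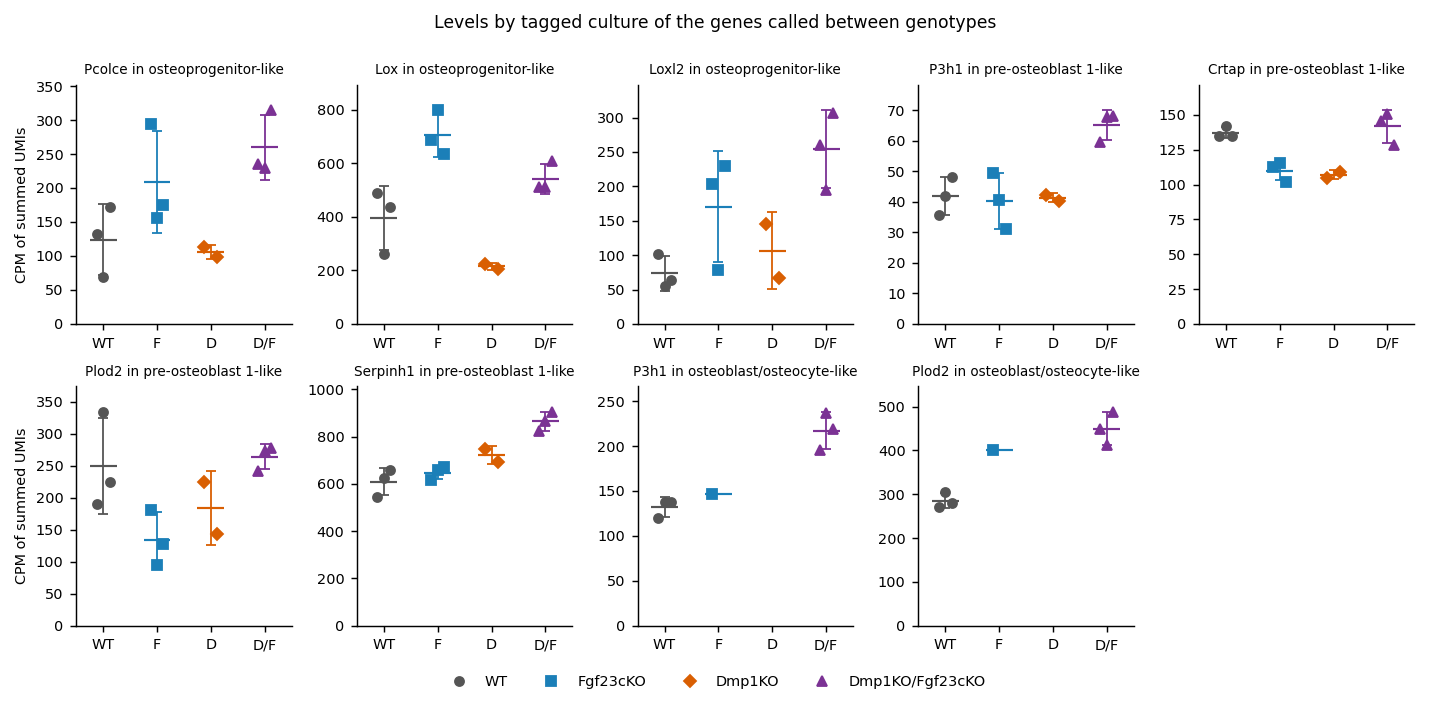
Levels in CPM of summed UMIs for each gene and stromal class with a call between genotypes or for the interaction, where each point is a tagged culture (F, Fgf23cKO, D, Dmp1KO, D/F, Dmp1KO/Fgf23cKO), the bar is the mean and the error bar is the SD. P3h1 and Serpinh1 lie higher in each Dmp1KO/Fgf23cKO culture than in each WT culture, and Plod2 in pre-osteoblast 1-like cells lies lower in each Fgf23cKO culture than in each WT culture.

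The comparison of Dmp1KO/Fgf23cKO with Dmp1KO asks what the Fgf23 deletion changes in cells without Dmp1. In osteoprogenitor-like cells, Pcolce and Lox were higher in Dmp1KO/Fgf23cKO, 2 of 9 genes, where 2.45% of all genes were called. Pcolce was at 113 and 98.8 CPM in Dmp1KO and 235, 230.1 and 314 CPM in Dmp1KO/Fgf23cKO (log2 fold change 1.46, SE 0.37, adjusted p = 0.0695). Lox was at 225 and 207 CPM in Dmp1KO and 509.7, 510.1 and 607 CPM in Dmp1KO/Fgf23cKO (1.4952, SE 0.30, adjusted p = 0.0193). Neither overlapped between the groups. Loxl2 (1.46, SE 0.43, adjusted p = 0.129), Bmp1 (1.45, SE 0.50, adjusted p = 0.208), Plod1 (1.43, SE 0.61, adjusted p = 0.347) and Crtap (1.31, SE 0.38, adjusted p = 0.131) had similar estimates without a call. Plod2 (0.91, SE 0.60), Serpinh1 (0.47, SE 0.38) and P4ha1 (-0.17, SE 0.63) had lower estimates. The median over the 9 genes was 1.43, beside -0.04 over all genes tested. The call of Pcolce was lost without Dmp1KO culture 2 (adjusted p = 0.354), Dmp1KO culture 3 (0.497), Dmp1KO/Fgf23cKO culture 2 (0.1265) or Dmp1KO/Fgf23cKO culture 3 (0.2875), and with totals alone (1.27, adjusted p = 0.134). The call of Lox was lost without Dmp1KO culture 2 (adjusted p = 0.177), Dmp1KO culture 3 (0.248) or Dmp1KO/Fgf23cKO culture 3 (0.106), and with cells thinned to 1300 UMIs (0.41, adjusted p = 0.715), where Pcolce was too low to be tested. Leaving out a Dmp1KO culture left 1, which was assumed to vary like the other groups. Summed osteoblast/osteocyte markers were 1533 to 1747 CPM in Dmp1KO and 5580 to 7916 CPM in Dmp1KO/Fgf23cKO, with 2 of 7 tested markers higher and 3 and 2 of 11 at 0, and their part was not tested.

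Pre-osteoblast 1-like cells gave 0 calls among the 10 genes between Dmp1KO/Fgf23cKO and Dmp1KO, where 1.35% of all genes were called (edgeR), and DESeq2 also called 0. An unadjusted p under 0.05 was found for 3 genes, P3h1, at 42.4 and 40.4 CPM in Dmp1KO (0.62, SE 0.19, adjusted p = 0.161), Crtap (0.37, SE 0.12, adjusted p = 0.1975) and Lox (0.52, SE 0.20, adjusted p = 0.258). Whether the effect of the Fgf23 deletion differed between osteoprogenitor-like and pre-osteoblast 1-like cells was tested with culture as a block, and 0 of 10 genes were called, with 5 at an unadjusted p under 0.05, where 0.428% of all genes were called. For Loxl2 the estimate in pre-osteoblast 1-like minus osteoprogenitor-like cells was -1.67, SE 0.44, adjusted p = 0.131, and it was called in DESeq2 (-1.62, adjusted p = 0.0489). For Dmp1KO against WT the same test called 0 of 10 genes, with 0 at an unadjusted p under 0.05 and 0 called in DESeq2, where 0.0357% of all genes were called. With totals alone the medians of all genes moved by 0.22 and 0.57 in these 2 tests, and the share of called genes with a positive difference went from 63.9 to 84% and from 0 to 86.4%.

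**Figure D5:**
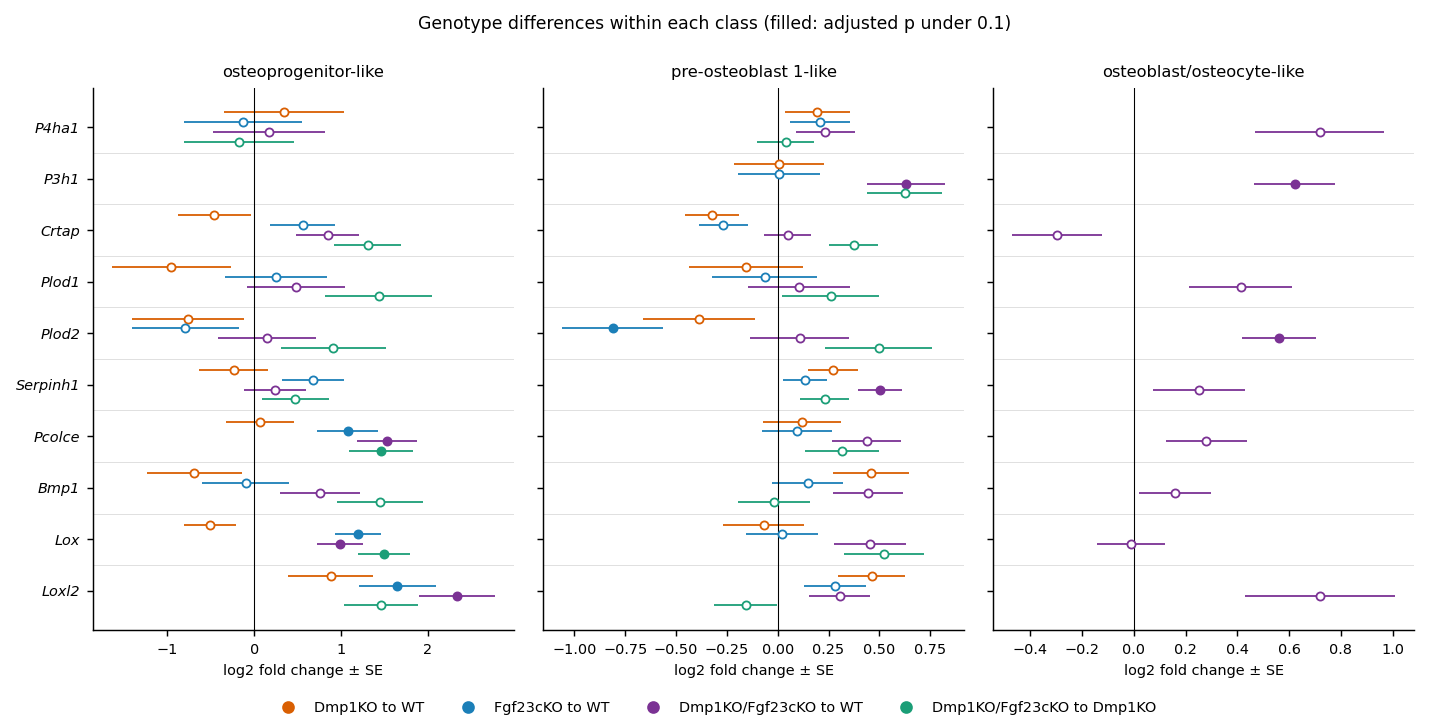
Log2 fold changes (points) with their SE (lines) of the 10 genes in 4 comparisons between genotypes, by stromal class, with filled points at an adjusted p under 0.1 (edgeR). Filled points are Pcolce, Lox and Loxl2 in osteoprogenitor-like, Plod2, P3h1 and Serpinh1 in pre-osteoblast 1-like, and P3h1 and Plod2 in osteoblast/osteocyte-like cells.

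The interaction of the 2 deletions asks whether the effect of the Fgf23 deletion differs between cultures without and with Dmp1, as the difference of Dmp1KO/Fgf23cKO and Dmp1KO minus that of Fgf23cKO and WT. In osteoprogenitor-like cells, 0 of 9 genes were called (edgeR), where 2.83% of all genes were called, DESeq2 called 0, and 1 gene had an unadjusted p under 0.05, Bmp1 (1.54, SE 0.71, adjusted p = 0.290). In pre-osteoblast 1-like cells, 2 of 10 genes were called, Crtap and Plod2, where 6.30% of all genes were called, of which 44.3% were positive with TMM factors and 56.1% with totals alone. Crtap was at 135, 142 and 135 CPM in WT, 112, 115.5 and 102 CPM in Fgf23cKO, 105 and 109 CPM in Dmp1KO and 145.5, 151 and 129 CPM in Dmp1KO/Fgf23cKO. Each culture with 1 deletion lay below each culture with none or both (interaction, log2, 0.64, SE 0.17, adjusted p = 0.0612). Plod2 was at 224 and 143 CPM in Dmp1KO and 241, 273 and 277 CPM in Dmp1KO/Fgf23cKO, beside the WT and Fgf23cKO values above (1.31, SE 0.36, adjusted p = 0.0720). The range of Plod2 in WT overlapped that in both groups without Dmp1. Crtap lost its call without WT culture 1 (adjusted p = 0.103), Fgf23cKO culture 3 (0.107), Dmp1KO culture 2 (0.243), Dmp1KO culture 3 (0.189), Dmp1KO/Fgf23cKO culture 1 (0.114) or Dmp1KO/Fgf23cKO culture 2 (0.133). Plod2 lost it without WT culture 2 (adjusted p = 0.136), Fgf23cKO culture 2 (0.105), Fgf23cKO culture 3 (0.1075), Dmp1KO culture 3 (0.2625), Dmp1KO/Fgf23cKO culture 2 (0.124) or Dmp1KO/Fgf23cKO culture 3 (0.121). With cells thinned to 1300 UMIs, Plod2 was at 2.03, adjusted p = 0.178, while Crtap was then too low to be tested, and with no filter on low counts Crtap was at 0.58, adjusted p = 0.175.

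Other genes of the collagen pathway, 27 in a list of further hydroxylases, chaperones, processing enzymes, crosslinking enzymes and matrix partners, gave calls in the same comparisons. In osteoprogenitor-like cells, 4 of the 18 tested were higher in Fgf23cKO than in WT and 0 lower, beside the 18.4% of all genes called. They were P3h4, a partner of lysyl hydroxylase (2.15, SE 0.47, adjusted p = 0.0113), Ppib, the prolyl isomerase in the complex of P3h1 and Crtap (1.10, SE 0.30, adjusted p = 0.0335), and Fmod and Sparc, which bind collagen. In Dmp1KO/Fgf23cKO against WT, where 24.1% of all genes were called, 5 were higher, P3h3, P3h4, Ppib, Fmod and Sparc, and 1 was lower, Loxl1, a relative of Lox (-1.19, SE 0.45, adjusted p = 0.0863). Against Dmp1KO, where 2.45% were called, 3 were higher, P3h3 (2.83, SE 0.63, adjusted p = 0.0372), Fmod (4.21, SE 0.61, adjusted p = 0.00343) and Sparc (1.52, SE 0.26, adjusted p = 0.00785). Fmod was at 13.2 and 16.1 CPM in Dmp1KO and at 209, 213.5 and 336 CPM in Dmp1KO/Fgf23cKO, and Sparc at 2767 and 1855 CPM and at 5962, 5334 and 6276 CPM. The Dmp1KO sums held only 4 and 7 UMIs of Fmod and 4 and 3 of P3h3. Untagged cells of this class held 57 UMIs of Fmod among 699450 in Dmp1KO and 9 among 185548 in Dmp1KO/Fgf23cKO. Fmod was thus not higher in the untagged Dmp1KO/Fgf23cKO cells, whereas P3h3 (16 and 14 UMIs) and Sparc (876 and 1187 UMIs) were. Dmp1KO against WT gave 0 calls among the 18 (edgeR), with 4 at an unadjusted p under 0.05, and the interaction 0, with 1.

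Of the 27 genes, 23 were tested in pre-osteoblast 1-like cells, and Dmp1KO against WT had 3 higher (Ppib, Pcolce2, Loxl3) and 2 lower (Plod3, Tgm2), beside the 12.2% of all genes called. Pcolce2, a relative of Pcolce, was at 2.85, 2.63 and 7.09 CPM in WT and at 20.6 and 34.5 CPM in Dmp1KO (2.66, SE 0.49, adjusted p = 0.007995). The WT sums held 702509, 380495 and 704864 UMIs in all, so the levels of WT cultures 1 and 2 stood for fewer than 3 counts. All Pcolce2 estimates against WT and its interaction below rest on these few molecules. Loxl3, a further lysyl oxidase relative, was at 107, 105 and 93.6 CPM in WT and 204 and 255 CPM in Dmp1KO (1.21, SE 0.25, adjusted p = 0.0123). Fgf23cKO against WT, with 12.3% of all genes called, had 4 higher (Ppib, Colgalt1, Pcolce2, Loxl3) and 3 lower (P4ha3, Plod3, Loxl1). Dmp1KO/Fgf23cKO against WT, with 15.5% called, had 6 higher (P3h4, Ppib, Fkbp10, Colgalt1, Pcolce2, Sparc) and 1 lower (Loxl1). The interaction, with 6.30% of all genes called, was called for 5 genes, with P4ha3, Plod3 and Fmod positive and Pcolce2 (-2.67, SE 0.58, adjusted p = 0.0294) and Loxl3 (-1.97, SE 0.32, adjusted p = 0.0121) negative. Loxl3 was at 305, 219 and 235 CPM in Fgf23cKO and 153, 201 and 106 CPM in Dmp1KO/Fgf23cKO, so each culture with 1 deletion lay above each culture with none or both. Dmp1KO/Fgf23cKO against Dmp1KO, with 1.35% called, gave 1 call, Fmod (1.1963, SE 0.25, adjusted p = 0.0705).

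In osteoblast/osteocyte-like cells, 22 of the 27 were tested between Dmp1KO/Fgf23cKO and WT, of which 4 were higher and 1 was lower, beside the 15.0% of all genes called. The higher genes were Ppib (0.61, SE 0.13, adjusted p = 0.0144), Fkbp10, a prolyl isomerase needed for hydroxylation of telopeptide lysines (0.46, SE 0.13, adjusted p = 0.0509), Colgalt1, which adds galactose to hydroxylysine (0.45, SE 0.14, adjusted p = 0.0711), and P3h4 (0.44, SE 0.15, adjusted p = 0.0873). Plod3, a lysyl hydroxylase, was lower (-0.56, SE 0.17, adjusted p = 0.0616). Ppib, Colgalt1, Fkbp10 and P3h4 were called higher in Dmp1KO/Fgf23cKO in both pre-osteoblast 1-like and osteoblast/osteocyte-like cells. In the test of the difference between classes, P3h3 (-2.69, SE 0.65, adjusted p = 0.0983) and Fmod (-3.04, SE 0.66, adjusted p = 0.0640) were called for Dmp1KO/Fgf23cKO against Dmp1KO, with the larger estimate in osteoprogenitor-like cells.

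The collagens that these proteins act on were called in part. In pre-osteoblast 1-like cells, 3 of 6 collagens were called between Dmp1KO/Fgf23cKO and WT, where 15.5% of all genes were called. Col1a2 (0.72, SE 0.23, adjusted p = 0.0670) and Col5a1 (0.58, SE 0.17, adjusted p = 0.0521) were higher and Col3a1 (-0.70, SE 0.19, adjusted p = 0.0365) was lower. Col3a1 was also lower in Fgf23cKO than in WT (-0.88, SE 0.19, adjusted p = 0.0176). Osteoprogenitor-like cells had Col5a1 higher in Fgf23cKO than in WT, Col1a2 and Col3a1 higher in Dmp1KO/Fgf23cKO than in WT, and Col3a1 higher than in Dmp1KO (2.48, SE 0.47, adjusted p = 0.01395). Of all genes, 18.4, 24.1 and 2.45% were called in these comparisons. Col3a1 was also called for the interaction there (2.18, SE 0.60, adjusted p = 0.09385, edgeR), where 2.83% of all genes were called. Between the classes, its difference of Dmp1KO/Fgf23cKO and Dmp1KO was called too (-2.54, SE 0.45, adjusted p = 0.01885, edgeR), where 0.428% of all genes were called. In osteoblast/osteocyte-like cells 0 of 6 collagens were called (edgeR), with 0 at an unadjusted p under 0.05, where 15.0% of all genes were called. Of 10 hypoxia-responsive genes, a list included because P4ha1 and Plod2 are known targets of hypoxia-inducible factors, Pgk1 and Ldha, which act in glycolysis, were called higher than in WT in osteoprogenitor-like and pre-osteoblast 1-like cells of all 3 other genotypes, among 3 and 8 tested. Of all genes, 12.1 to 24.1% and 12.2 to 15.5% were called in these comparisons. Vegfa, the other gene tested in osteoprogenitor-like cells, was not called, at -0.17 in Dmp1KO, -1.03 in Fgf23cKO and -1.70 in Dmp1KO/Fgf23cKO. In pre-osteoblast 1-like cells Pdk1 was called in Dmp1KO alone (2.23, SE 0.67), and the others tested in no genotype. In osteoblast/osteocyte-like cells of Dmp1KO/Fgf23cKO cultures, Pgk1 (1.40, SE 0.23), Ldha (1.14, SE 0.18) and Pdk1 (1.80, SE 0.36) were called, 3 of 7 tested, where 15.0% of all genes were called. Vegfa (0.01, SE 0.18), Bnip3 (0.93, SE 0.35), Ero1a (0.40, SE 0.23) and Ndrg1 (0.32, SE 0.26) were not.

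Macrophage-like cells were compared as a class outside the stroma, and here a large share of the 12903 genes tested was called. It was 56.8% in Dmp1KO against WT, 48.0% in Fgf23cKO against WT, 57.8% in Dmp1KO/Fgf23cKO against WT, 39.4% in Dmp1KO/Fgf23cKO against Dmp1KO and 44.8% for the interaction. Totals alone moved the share of called genes that were higher in Dmp1KO/Fgf23cKO than in Dmp1KO from 49.35 to 67.15%. The class was held by different clusters in different genotypes. Of 3279 WT cells, 3043 were in the cluster led by Gm17268 and Slc16a9, and 772 of 1145 Fgf23cKO and 1326 of 1520 Dmp1KO/Fgf23cKO cells were in the cluster led by Cd86 and Pstpip2. Of 1603 Dmp1KO cells, 736 were in the latter and 829 in the cluster led by Lsp1. Other hematopoietic cells lay outside this class and were not compared. They made up 59.4 and 50.0% of the cells of the Dmp1KO cultures, but 12.9, 10.4 and 10.3% of the WT cultures. Among their clusters were 1 led by Mfge8 and Itgax, with 1244 Dmp1KO cells, and 1 led by Fgf13 and Pcp4l1, with 772. The values below therefore cover only a part of the hematopoietic cells of Dmp1KO. Of the 10 genes, 9 were tested and Plod2 was too low. Plod1 was at 110.4, 119 and 111 CPM in WT, 116, 117 and 100.4 CPM in Fgf23cKO, 64.1 and 69.6 CPM in Dmp1KO and 111.5, 106 and 113 CPM in Dmp1KO/Fgf23cKO. Both Dmp1KO cultures lay below all others (log2 fold change to WT -0.71, SE 0.07, adjusted p = 6.95e-08). P4ha1 was at 90.6, 110.4 and 103 CPM in WT and 62.6 and 68.15 CPM in Dmp1KO (-0.59, SE 0.08, adjusted p = 2.01e-06), and Crtap was lower there too (-0.62, SE 0.08, adjusted p = 1.16e-06). Both were higher in Dmp1KO/Fgf23cKO than in Dmp1KO, with log2 fold changes of 0.47, SE 0.07, for P4ha1 and 0.27, SE 0.07, for Crtap. Crtap was called lower than in WT in Fgf23cKO (-0.32, SE 0.07) and in Dmp1KO/Fgf23cKO (-0.35, SE 0.06), and with cells thinned to 1300 UMIs its direction in Fgf23cKO turned.

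Serpinh1, Pcolce, Bmp1, Lox and Loxl2 lay, relative to the stroma, near the collagens in macrophage-like cells by their medians. The highest culture reached 2.45% of the stromal level for Loxl2, beside 1.02% for Col5a1, the highest of the collagens. Serpinh1 was at 3.575, 3.05 and 3.825 CPM in WT, 6.25, 5.62 and 5.985 CPM in Fgf23cKO, 1.175 and 1.86 CPM in Dmp1KO and 6.498, 7.61 and 6.28 CPM in Dmp1KO/Fgf23cKO. Lox had the same order, at 2.38 to 3.38, 5.42 to 6.37, 1.65 to 2.08 and 6.805 to 8.10 CPM. Col1a1 was at 51.0 to 59.1 CPM in WT, 73.65 to 78.3 CPM in Fgf23cKO, 12.8 to 13.2 CPM in Dmp1KO and 139.5 to 142 CPM in Dmp1KO/Fgf23cKO in the same cells. Summed osteoblast/osteocyte markers were 154 to 173, 226 to 230.4, 37.0 to 40.6 and 342 to 346 CPM, with 1, 1, 3 and 1 of 11 at 0. Serpinh1, Pcolce, Bmp1 and Lox were called higher in Fgf23cKO and in Dmp1KO/Fgf23cKO than in WT, and Serpinh1 and Loxl2 were called lower in Dmp1KO. With cells thinned to 1300 UMIs these genes were too low to be tested, and of P4ha1, Crtap and Plod1, which were tested, P4ha1 and Plod1 were still called in Dmp1KO against WT and in Dmp1KO/Fgf23cKO against Dmp1KO and Crtap in no comparison. Against Dmp1KO, 7 of the 9 genes were called higher in Dmp1KO/Fgf23cKO, where 39.4% of all genes were called in either direction. The part of free RNA in these calls was not tested. The Loxl2 level of WT rested on few cells, since 0.397% of WT macrophage-like cells, untagged included, held a UMI of it. In Dmp1KO it was 0.936%, at a median of 16173 UMIs per cell, beside 7195 in WT. Of the 645 Loxl2 UMIs of tagged WT cells, 6.98% lay in this class, and of the 1380 of Dmp1KO 0.942%.

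Over all cells of a culture, Serpinh1 was at 166, 80.4 and 259 CPM in WT, 266, 187 and 97.0 CPM in Fgf23cKO, 22.5 and 36.2 CPM in Dmp1KO and 180.2, 412 and 226.5 CPM in Dmp1KO/Fgf23cKO, with Dmp1KO lowest, whereas in pre-osteoblast 1-like cells alone both Dmp1KO cultures lay above each WT culture and in osteoprogenitor-like cells, at 116 and 207 CPM beside 306, 123 and 309 CPM in WT, the ranges overlapped. In such sums over all cells, fewer cells of a type and less RNA per cell cannot be told apart.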

How the data were processed

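Cells were sequenced with 10x Genomics 3′ chemistry and marked per culture with CellPlex tags. The authors made the deposited files with Cell Ranger 7.0.1 on mm10, and the files hold raw UMI counts per gene and cell, with multiplets removed by their tags. No doublet caller was run here. The 12 tag rows were kept out of all totals. Of 19684 distinct barcodes listed, 44 were found in more than 1 genotype and 0 in more than 1 sample of a genotype.

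Cells were normalized by SCTransform with the mitochondrial share regressed out (Seurat 5.3.0, R 4.3.3), reduced to 30 principal components of 3000 variable genes and clustered by the Louvain method at a resolution of 0.8. The number of clusters may differ from that of the study. Clusters were named from marker lists, and those without enough markers stayed unnamed. UMIs were summed per tagged culture and class for at least 10 cells.

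Sums were tested with the quasi-likelihood test of edgeR 4.0.16 (limma 3.58.1) with TMM scaling after filterByExpr, all genotypes with at least 2 sums in 1 fit, Benjamini-Hochberg adjustment over all genes tested in a class, 2-sided, and a threshold of 0.1. Fold changes are on the log2 scale with their SE. The fit was also run on simulated counts for osteoprogenitor-like and pre-osteoblast 1-like cells. All genotypes were drawn there from the same shares of genes, apart from a set of raised genes. It therefore cannot show how the choice of scaling affects the tests. Samples of untagged cells entered the clustering and the levels over all samples, and entered a test only as an alternative. They hold cells of the same pooled cultures as the tagged ones. In that alternative they are therefore not independent replicates, and calls gained or lost there are not a check with further cultures. Alternatives were RLE factors, library totals alone (added after seeing the data), DESeq2 1.42.0, no filter on low counts, the replicate number as a block, each culture left out, untagged samples included, cells thinned to 1300 UMIs, cells with at least 500 genes and under 20% mitochondrial UMIs, clustering without the listed genes, a resolution of 1.2, at least 20 cells per sum, and a threshold of 0.05. The 10 genes and all lists were chosen with earlier results of these data known. Named were the 10 genes, other genes of the pathway list past the threshold, Dmp1 and Fgf23, and for each of the 10 the 3 genes of most like pattern, of which 1 is not reported here. Collagens and hypoxia-responsive genes are from lists written down with these. The limit for a count of 0 is 3 counts per sum and covers counting error only.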

Additional observations from a re-analysis of the deposited data

Results flagged for a closer look

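Each result here is an interaction of the 2 deletions, that is, a test of whether the effect of the Fgf23 deletion differed between cultures without and with Dmp1 (edgeR, log2 scale, Benjamini-Hochberg over all genes tested). In pre-osteoblast 1-like cells, where 6.30% of all genes tested were called, Crtap, the partner of prolyl 3-hydroxylase 1, had an interaction of 0.64 (adjusted p = 0.0612), with the 5 cultures of a single deletion below the 6 others. Plod2, the telopeptide lysyl hydroxylase, had one of 1.31 (adjusted p = 0.0720) in the same cells. Each of these 2 calls was lost without any of 6 single cultures, with the replicate block and at a threshold of 0.05, that of Plod2 also with cells thinned to 1300 UMIs, where Crtap was too low to be tested. In macrophage-like cells, where 44.8% of all genes tested were called, the interaction was 0.57 for P4ha1 (adjusted p = 0.000114), 0.59 for Crtap (adjusted p = 0.000105) and 0.68 for Plod1 (adjusted p = 7.99e-06). For Serpinh1 it was 1.28 (adjusted p = 0.00212), for Lox 0.82 (adjusted p = 0.0350) and for Loxl2 2.02 (adjusted p = 0.0452), at median levels in macrophage-like cells near those of the collagens, relative to the stroma. In WT, a UMI of Loxl2 was found in 0.397% of these cells, untagged included. With cells thinned to 1300 UMIs, P4ha1 and Plod1 were still called, the direction of Crtap turned (-0.18), and Serpinh1, Lox and Loxl2 were too low to be tested. The class was held by different clusters in different genotypes, and genotype and droplet reaction cannot be told apart in any of the 8 results.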

How the results depend on the processing

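Counts below are of the 10 genes called. Those with untagged samples included treat a mixture of the same pooled cultures as a further replicate. For osteoprogenitor-like cells, the count of 0 in Dmp1KO against WT became 1 with untagged samples included and 1 with library totals alone. The count of 3 in Fgf23cKO against WT became 0 with cells thinned to 1300 UMIs and 1 with clustering without the listed genes, and the count of 3 in Dmp1KO/Fgf23cKO against WT became 0 with thinned cells. The count of 2 in Dmp1KO/Fgf23cKO against Dmp1KO became 1 at a threshold of 0.05, 1 with the replicate block, 4 with untagged samples, 0 with thinned cells, 4 with clustering without the listed genes and 1 with library totals. For pre-osteoblast 1-like cells, the count of 0 in Dmp1KO against WT became 2 with no filter on low counts, 2 with untagged samples, 1 with clustering without the listed genes and 1 at a resolution of 1.2. The count of 1 in Fgf23cKO against WT became 0 at 0.05, 0 with the replicate block, 0 with thinned cells and 2 at a resolution of 1.2. The count of 2 in Dmp1KO/Fgf23cKO against WT became 1 at 0.05, 5 with no filter, 1 in DESeq2, 1 with the replicate block, 5 with untagged samples and 0 with thinned cells. The count of 0 against Dmp1KO became 3 with no filter, 3 with untagged samples and 1 with at least 20 cells. The interaction count of 2 became 0 at 0.05, 1 with no filter, 0 with the replicate block and 0 with thinned cells. For osteoblast/osteocyte-like cells, the count of 2 became 4 with no filter, 1 with thinned cells and 4 with library totals. In macrophage-like cells, thinning took the counts of 5, 5, 5, 7 and 6 (Dmp1KO, Fgf23cKO and Dmp1KO/Fgf23cKO against WT, Dmp1KO/Fgf23cKO against Dmp1KO, interaction) to 2, 0, 0, 2 and 2. The count of 0 for the class difference of Dmp1KO/Fgf23cKO against Dmp1KO became 1 with no filter, 1 in DESeq2, 1 with untagged samples and 1 with at least 20 cells. With each culture left out in turn, the counts in this order of comparisons ranged over 0 to 0, 1 to 3, 3 to 4, 0 to 3 and, for the interaction, 0 to 0 in osteoprogenitor-like cells, over 0 to 1, 0 to 1, 1 to 4, 0 to 0 and 0 to 2 in pre-osteoblast 1-like cells, over 0 to 4 in osteoblast/osteocyte-like cells, over 5 to 6, 4 to 7, 5 to 7, 7 to 8 and 4 to 6 in macrophage-like cells, and over 0 to 0 and 0 to 1 for the class differences of Dmp1KO against WT and of Dmp1KO/Fgf23cKO against Dmp1KO. Among results called in the main run or in the alternative, direction turned in 3, all with thinned cells. Lox in osteoprogenitor-like cells of Dmp1KO/Fgf23cKO against WT was then at -0.19. Crtap in macrophage-like cells was at 0.34 in Fgf23cKO against WT and at -0.18 for the interaction. Changes of sign in results called in neither run were not counted, so uncalled estimates may change sign with the scaling. Thinning also left genes too low to be tested, since Serpinh1, Lox and Loxl2 alone were tested in osteoprogenitor-like and P4ha1, Crtap and Plod1 alone in macrophage-like cells. Beyond that, the cause of these moves was not tested. Of the 40 levels by class, 8 moved with thinned cells by more than the SD between cultures, and 0 moved with the filter on cells or with clustering without the listed genes. Same-numbered cultures did not deviate together (correlations from -0.25 to 0.28 in osteoprogenitor-like, -0.10 to 0.10 in pre-osteoblast 1-like and -0.08 to 0.04 in macrophage-like cells), so the replicate block is a fit on shared numbers only. The sums of osteoprogenitor-like cells held few UMIs of each gene, which limits what they can show.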
